A study of Canis lupus familiaris with 5 samples.

Results

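Among the genes expressed in the skin fibroblasts of an adult dog, 85 had already lost most of their transcripts in induced neural stem cell-like cells (iNSLCs) and remained low in induced pluripotent stem cells (iPSCs). These genes were chosen from 32220 gene models by 3 conditions on CPM (the count of a gene per 1000000 counts of its library). A gene needed at least 20 CPM in fibroblasts, at most 1/8 of that level in iNSLCs, and at most 1/8 of it in each of 3 iPSC clones. Mitochondrial genes and 5 chromosomal regions were left out, and 3 further genes that passed the thresholds lay in those regions. The measured levels therefore chose the genes, so their loss relative to fibroblasts is described below without a test. In the 3 genes nearest to the cap on the inside, the highest level outside fibroblasts was 12.3%, 12.4% and 12.4% of the fibroblast level, and in the nearest 3 on the outside it was 12.6%, 12.8% and 12.9%. The lowest fibroblast levels were 21.5, 21.9 and 22.1 CPM inside the limit, and 19.6, 19.7 and 19.7 CPM in the nearest genes outside it.

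Fibroblasts are the connective tissue cells of the skin, and they make and remodel the extracellular matrix. When somatic cells are reprogrammed, genes of the starting cell type are usually silenced before the network of pluripotency genes becomes stable. Genes silenced in an intermediate state can thus be told from genes that are silenced only in pluripotent cells, provided that the intermediate state is sampled by itself.

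The series held 5 RNA-seq libraries, all made from an adult dog, K9. The fibroblasts, taken from ear skin, were at passage 1. The iNSLCs were the cells of primary dome-shaped colonies that formed once reprogramming factors had been brought into fibroblasts on episomal vectors, and their library was from passage 2. The iPSCs came from colonies that emerged after a change of medium, with clone iPSC 1 at passage 9 and clones iPSC 2 and iPSC 3 at passage 8. All cells thus shared 1 genetic background, and the iNSLCs and iPSCs shared an origin in fibroblasts that had received the vectors. Passage differed between all groups, so passage and cell state cannot be told apart.

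Total counts ranged from 11699186 in iNSLCs to 34317091 in iPSC 3, and 3 counts, the detection floor used here, corresponded to between 0.0874 and 0.256 CPM. The fibroblast and iNSLC groups had 1 library each. In every test the spread came from the 3 clones, the lone libraries were assumed to vary like them, and p-values measured the spread between clones of 1 dog. Gene symbols were not at hand for the Ensembl dog gene IDs of the files, so genes are given by position (build CanFam3.1), and the labelled cell types could not be checked against marker genes. In bulk RNA, fewer cells of a type and less RNA per cell cannot be told apart. The levels below may thus describe fewer cells that kept fibroblast transcripts or a lower level in each cell. Reads from mouse feeder cells, which the study used during induction, were not separated, and their part in these levels was not tested.

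The 85 genes together took 4.0% of all counts in fibroblasts (95% Clopper-Pearson interval 3.99% to 4.01%). In iNSLCs they took 0.247% (0.244% to 0.25%). In the clones the share was 0.147% in iPSC 1, 0.0946% in iPSC 2 and 0.155% in iPSC 3, with a mean of 0.132% ± 0.0327 (SD, n = 3). The summed level thus stood at 6.17% of the fibroblast level in iNSLCs and at 3.68%, 2.37% and 3.87% in the 3 clones, so that the iNSLC library was above every clone and iPSC 2 was the lowest. These percentages depend on the scaling. By library totals the sum was 39983.8 CPM in fibroblasts and 2467.6 CPM in iNSLCs. Scaled with TMM factors it was 51936.4 and 2517.4 CPM, with 1343.7, 843.0 and 1434.9 CPM in the clones, so a smaller part was left. Gene by gene, a median of 5.12% of the fibroblast level was left in iNSLCs (interquartile range 3.0% to 9.48%). The median was 2.66% in iPSC 1 (0.759% to 5.19%), 1.83% in iPSC 2 (0.62% to 4.08%) and 2.8% in iPSC 3 (0.454% to 5.32%). Few of the genes were silent. In iNSLCs 70 of the 85 genes had at least 1 CPM and 40 at least 10 CPM, while in the clones between 58 and 62 genes had at least 1 CPM. Only 4 genes were under 3 counts in iNSLCs, against 7, 9 and 8 in iPSC 1, iPSC 2 and iPSC 3, and none was under 3 counts in iNSLCs and in every clone.

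**Figure D1:**
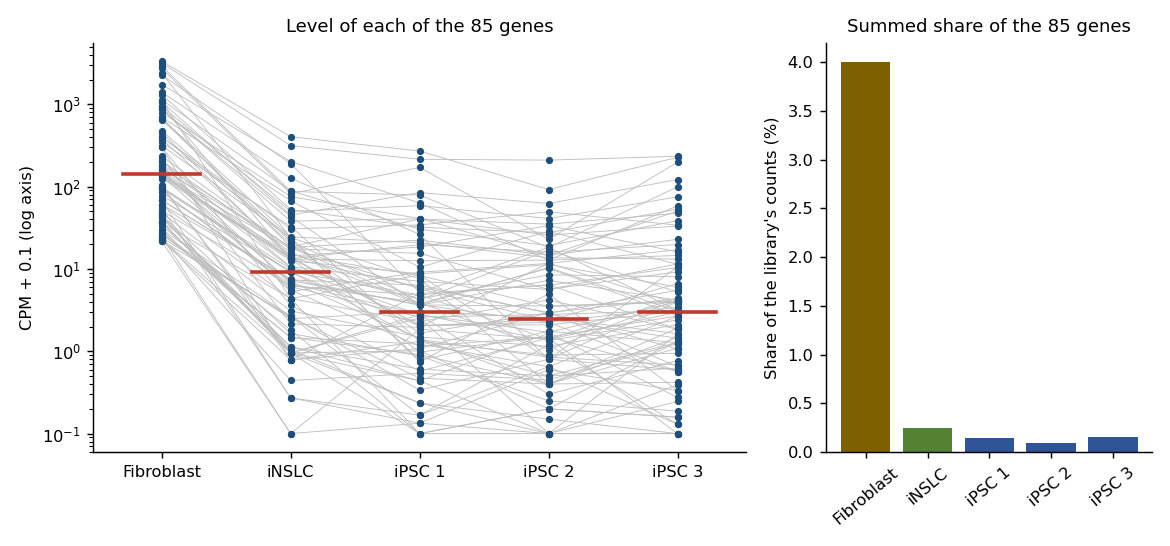
Left, the level of each of the 85 genes in the 5 libraries as CPM + 0.1 on a log axis, with a grey line per gene and a red bar at the median. Right, the percent of each library's counts that the 85 genes took. The medians were 141 CPM in fibroblasts, 9.15 CPM in iNSLCs and 2.94, 2.35 and 2.94 CPM in the clones.

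Most of the lost transcripts came from a few genes. In fibroblasts 9 of the 85 genes held 53.2% of their counts, and 12 had at least 1000 CPM. Per kilobase of exon, the most abundant in fibroblasts was a gene of 4 exon blocks on the minus strand of chr5:16390683-16396187, with 1713.7 CPM per kb. It had 2736.8 CPM in fibroblasts, 82.2 CPM in iNSLCs and 171, 22.8 and 198 CPM in iPSC 1, iPSC 2 and iPSC 3. The clones lay on both sides of the iNSLC level, with iPSC 2 below it and the others above. The next was a gene of 633 exonic bases at chr28:7823195-7830387 (1379.5 CPM per kb), which fell in steps from 873 CPM in fibroblasts to 43.2 CPM in iNSLCs and 3.55, 3.45 and 3.96 CPM in the clones. A gene at chr3:52054885-52064689 had 1015.4 CPM per kb in fibroblasts, with 1312.9 CPM there, 52.6 CPM in iNSLCs and 32.1, 27.5 and 53.2 CPM in the clones. By library totals the iNSLC value lay within the range of the clones, just below iPSC 3 and above iPSC 1 and iPSC 2. Scaling with TMM factors (0.98021 for iNSLCs, 1.079 for iPSC 3) put iNSLCs above every clone.

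The gene at chr16:13085974-13279666 had 3334.9 CPM in fibroblasts, 404 CPM in iNSLCs and 271, 92.2 and 227 CPM in the clones, so 12.1% of the fibroblast level was left in iNSLCs. The gene at chr27:904661-926708, with 3174.1 CPM in fibroblasts, had 315 CPM in iNSLCs and 215, 210 and 234 CPM in the clones. Both stayed well detected in every library, and all clones were below iNSLCs. In the gene at chrX:121330384-121335433 the level went from 1737.9 CPM to 202 CPM in iNSLCs and 63.3, 12.7 and 58.4 CPM in the clones.

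Other genes kept a far smaller part of their fibroblast level. The largest ratio of the fibroblast level to the highest of the other libraries, 266 with libraries under 3 counts set to 3 counts, belonged to a gene of 3 exon blocks at chr24:21299443-21305539. It had 68.1 CPM in fibroblasts, 0.171 CPM in iNSLCs (2 counts) and 0.0338, 0 and 0.146 CPM in the clones. As counted, the fibroblast level was 398 times the iNSLC level (95% exact Poisson interval of the iNSLC count, 110 to 3290.3). The second largest ratio, 133, belonged to a gene of 996 exonic bases at chr14:19399825-19403996, whose level was 1112.2 CPM in fibroblasts, 4.27 CPM in iNSLCs and 8.35, 0.699 and 3.9 CPM in the clones. Its iNSLC level was 260-fold below fibroblasts (interval 197 to 351) and lay inside the range of the clones. At chr30:38465583-38498154 the fibroblast level of 300 CPM was 439 times the iNSLC level of 0.684 CPM (interval 223 to 1017.4), and the clones had 0.981, 2.85 and 0.554 CPM. The gene at chr6:8719546-8727277 went from 2398.1 CPM to 23.9 CPM in iNSLCs and to 7.48, 0.3 and 1.81 CPM in the clones. Among the 85 genes, 10 had less than 1% of the fibroblast level left in iNSLCs and 23 had less than 1% left in the mean of the clones.

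The contrast of iPSCs with fibroblasts was used to choose the genes, and is given only for its size. The median log2 fold change of the 85 genes was -5.78 (range -13.26 to -3.72), beside a median of 0.27 over the 17479 genes tested. Calls of this contrast are left out, as the choice fixed them. Of the 6589 genes with at least 20 CPM in fibroblasts, 120 (1.82%) were at or under 1/8 of the fibroblast level in iNSLCs and 405 (6.15%) were so in every clone. The 85 genes were 70.8% of the first set and 21.0% of the second. Another 35 genes were low in iNSLCs but not in every clone, and 19 of these were above 1/8 in all 3 clones.

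The step from iNSLCs to iPSCs was not part of the choice. Both levels were capped by it, however, so a low iNSLC value was required of every gene, which can push this difference upwards, and low clones were required as well, which can push it downwards. All 85 genes passed the filter on low counts, 2 of them only through the fibroblast library, as 83 passed when it was left out. By edgeR's quasi-likelihood test (Benjamini-Hochberg adjusted p under 0.05) 15 genes (17.6%) had lower levels in iPSCs than iNSLCs, where 7.71% of all genes tested and 9.86% of the genes with at least 20 CPM in fibroblasts were lower. With the fibroblast library left out of the fit, 13 of the 83 genes were lower, where 7.99% of all genes tested were. In the other direction 2 genes (2.35%) were higher, where 3.51% of all and 2.82% of the fibroblast-expressed genes were higher. The median log2 fold change was -1.25, beside 0.2 over all genes tested and 0.02 over the fibroblast-expressed genes, and it was negative in 68 of the 85 genes. At an unadjusted p under 0.05, 34 genes were lower and 3 higher. The level in all 3 clones was below iNSLCs in 55 genes (64.7%), where this held for 30.1% of all genes tested and 32.1% of the fibroblast-expressed genes. It was above iNSLCs in 11 genes (12.9%, against 46.4% and 44.2%), and the clones lay on both sides in the remaining 19. With TMM scaling, these shares became 69.4% below (against 38.3%) and 11.8% above (against 37.5%). The cap on the clones had removed 35 of the 120 genes low in iNSLCs, and the genes set beside the 85 were under no such cap. The difference from their shares is thus a description only and cannot show a further fall of the 85 genes as a set.

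**Figure D2:**
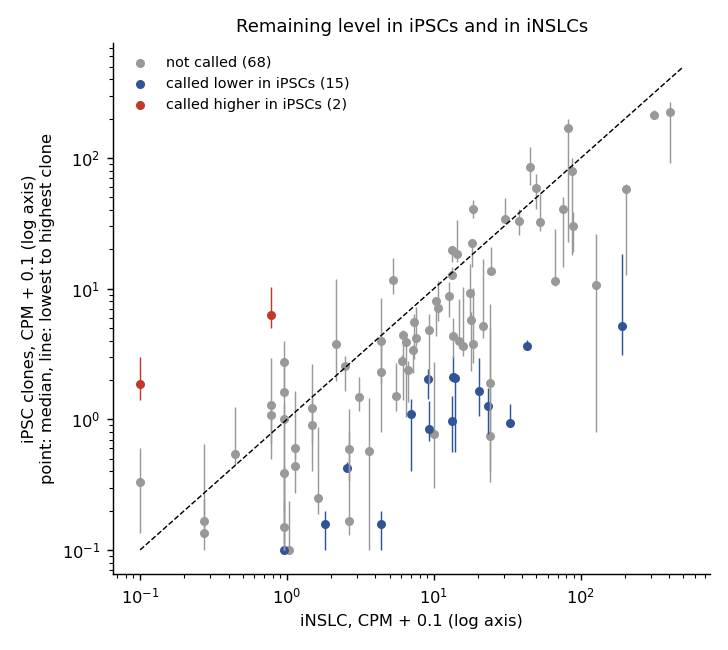
Level of each of the 85 genes in iNSLCs (x axis) and in iPSCs (y axis), both as CPM + 0.1 on log axes. Points are the median of 3 clones, vertical lines run from the lowest to the highest clone, the dashed line marks equal levels, and the 15 genes called lower and 2 called higher in iPSCs are coloured.

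The 15 genes that fell further in iPSCs had log2 fold changes between -7.5 and -2.45. A median of 7.68% of the fibroblast level was left in iNSLCs and 0.387% in iPSCs. The lowest fold change belonged to ENSCAFG00000009912, a gene of 12 exon blocks at chr31:33458359-33632213, which had 36.7 CPM in fibroblasts, 0.855 CPM in iNSLCs (10 counts) and 0 counts in all clones. The fitted log2 fold change was -7.50 (SE 0.971, edgeR adjusted p = 0.0259), a value that depends on how a count of 0 is treated. With 3 counts per library as the floor, the level in iPSCs was at least 5.7-fold lower. This gene was 1 of the 2 that entered the test only through the fibroblast library, where it was high. ENSCAFG00000012963, at chr27:31735326-31738744, had 36.5 CPM in fibroblasts, 4.27 CPM in iNSLCs (50 counts) and 0, 0.0999 and 0.0583 CPM in the clones. Here the fold change was -6.47 (SE 0.802, edgeR adjusted p = 0.00997), and the iNSLC level was 89.6 times that of the pooled clones (95% exact Poisson interval of the pooled count, 35.0 to 329).

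Several of the 15 genes had over 100 counts in iNSLCs, so that their further fall started from a well-counted level. The gene at chr11:69077478-69169707, with 30 exon blocks, went from 2275.5 CPM in fibroblasts to 190 CPM in iNSLCs and 5.07, 18.3 and 3.03 CPM in the clones. Its log2 fold change between iPSCs and iNSLCs was -4.62 (SE 0.844, edgeR adjusted p = 0.0263). The gene of 52 exon blocks at chr27:13280495-13420864 had 345 CPM in fibroblasts, 32.7 CPM in iNSLCs and 1.22, 0.799 and 0.845 CPM in the clones. All clones were far below the iNSLC level and close to each other, and the fold change was -5.25 (SE 0.338, edgeR adjusted p = 0.00188). The chromosome 28 gene described above had the smallest standard error of the 15, with a log2 fold change of -3.72 (SE 0.275, edgeR adjusted p = 0.0025). At chr5:21181908-21186071 the levels were 316 CPM in fibroblasts, 23.3 CPM in iNSLCs and 0.676, 1.65 and 1.17 CPM in the clones. At chr8:47659413-47758444 they were 947, 13.2 and then 0.879, 1.4 and 0.466 CPM. The choice required a large fall from fibroblasts to iNSLCs in these genes, and they were taken from those called lower in iPSCs. The direction of both steps was thus fixed, and only their sizes are described.

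Each of the 2 genes called higher in iPSCs was nearly or fully undetected in iNSLCs. ENSCAFG00000030617, at chr9:25664460-25670771, had 24.5 CPM in fibroblasts, 0 counts in iNSLCs and 1.76, 1.3 and 2.88 CPM in the clones. It was at least 95.6-fold lower in iNSLCs than in fibroblasts, and the lowest clone was at least 5.06-fold higher than iNSLCs, with 3 counts as the floor. The fitted log2 fold change was 8.56 (SE 1.73, edgeR adjusted p = 0.0339). ENSCAFG00000006991, at chr24:20991132-21002937, had 104 CPM in fibroblasts, 0.684 CPM in iNSLCs (8 counts) and 4.94, 6.24 and 10.3 CPM in the clones, with a log2 fold change of 3.22 (SE 0.703, edgeR adjusted p = 0.0406). The choice had capped every clone at 1/8 of the fibroblast level, and both genes were taken as called higher than iNSLCs. Clones between these levels were thus fixed, and only the sizes are described.

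The other 9 genes with all clones above iNSLCs did not pass the test. The gene at chr11:52213494-52220763 had 1062 CPM in fibroblasts, 45.1 CPM in iNSLCs and 84.7, 62.3 and 122 CPM in the clones (log2 fold change 0.83, SE 0.471, edgeR adjusted p = 0.271). The gene of 69 exon blocks at chr6:47425307-47622225 had 682 CPM in fibroblasts, 18.5 CPM in iNSLCs and 40.4, 34.9 and 47.4 CPM in the clones (log2 fold change 0.99, SE 0.353, edgeR adjusted p = 0.123). Over all 11 genes, the medians left were 2.71% in iNSLCs and 6.0% in iPSCs. In the 55 genes with all clones below they were 7.68% and 1.38%. Sorting the genes by side fixed the order of the medians in both sets, so only their sizes are described. In the 19 genes with clones on both sides the medians were 3.72% and 3.24%.

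How a gene moved between iNSLCs and iPSCs went with how much of it was left in iNSLCs, which is a description only, since the iNSLC value is part of both measures. Of the 15 genes with at least 10% left in iNSLCs, all had every clone below iNSLCs, and 3 were called lower. The cap of 1/8 of the fibroblast level on every clone left little room above iNSLCs in these genes. The more was left in iNSLCs, the less room the cap gave, so it also shaped the counts that follow. Among the 40 genes with less than 5% left, the clones were all below in 17, all above in 10 and on both sides in 13, with a median log2 fold change of -0.46. In the 45 genes with at least 5% left, these counts were 38, 1 and 6, and the median was -1.68. In the 10 genes with less than 1% left, the median was 1.08. Of the 12 genes with at least 1000 CPM in fibroblasts, 7 had all clones below, 1 had all above and 4 had clones on both sides.

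The number of calls between iPSCs and iNSLCs rested strongly on which clones were in the fit. Without iPSC 3, edgeR called 0 genes lower and 0 higher (32 and 3 at an unadjusted p under 0.05), and 0% of all genes tested were called. Without iPSC 1 it called 23 lower, where 6.65% of all genes tested were, and without iPSC 2 it called 38 lower, where 15.2% were. DESeq2 called 29 lower with all clones (11.0% of all genes) and 28 without iPSC 3 (8.61%), while limma-voom called 15 (8.14%) and 2 (2.28%). The adjusted p-values of ENSCAFG00000009912 and ENSCAFG00000012963 reached 0.0951 and 0.0894 over the alternatives tried, and those of ENSCAFG00000030617 and ENSCAFG00000006991 reached 0.0987 and 0.128. Without the fibroblast library the last of these genes had an adjusted p of 0.0564. The median log2 fold change of the 85 genes stayed between -1.57 and -1.09 in every alternative fit that was run.

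The clones were compared with each other gene by gene, as a description. In the 72 genes with at least 3 counts in each clone, the highest clone was a median of 2.43-fold above the lowest, against 1.47-fold in 6536 of the fibroblast-expressed genes. The 85 genes were chosen for low levels in the clones, and lower counts have more counting error, whose part was not tested. Of these 72 genes, 24 differed by at most 2-fold and 19 by at least 4-fold. The widest range was at chr1:84743276-84763121, where 1400.2 CPM in fibroblasts and 127 CPM in iNSLCs stood against 26.2 CPM in iPSC 1, 0.699 CPM in iPSC 2 and 10.5 CPM in iPSC 3, a 37.5-fold range. A gene of 1 exon block at chr30:2222898-2223452 had 402 CPM in fibroblasts, 24 CPM in iNSLCs and 0.643, 4.89 and 0.233 CPM in the clones, a 21.0-fold range with iPSC 2 the highest. The chromosome 27 gene at 904661 was the most even, with a 1.11-fold range.

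iPSC 2 was the clone most often at an end of the range. It was the lowest in 44 and the highest in 28 of the 84 genes in which the clones were not all equal, so it was at an end in 85.7%, where this held for 64.4% of the fibroblast-expressed genes. iPSC 1 was at an end in 42 of the 84 genes (58.7% of the fibroblast-expressed genes) and iPSC 3 in 53 (76.8%). Pairwise, the median absolute log2 difference (CPM + 0.1) in the 85 genes was 0.53 between iPSC 1 and iPSC 3, 1.0 between iPSC 1 and iPSC 2 and 1.01 between iPSC 2 and iPSC 3. In the fibroblast-expressed genes these differences were 0.36, 0.25 and 0.41, so there iPSC 1 and iPSC 2 were the closest pair. iPSC 2 was also the shallowest of the 3 clone libraries, with 20021139 counts against 29564180 and 34317091, and the part of depth in this order was not tested. With TMM scaling iPSC 2 was at an end in 88.1% of the 84 genes, against 65.1%.

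**Figure D3:**
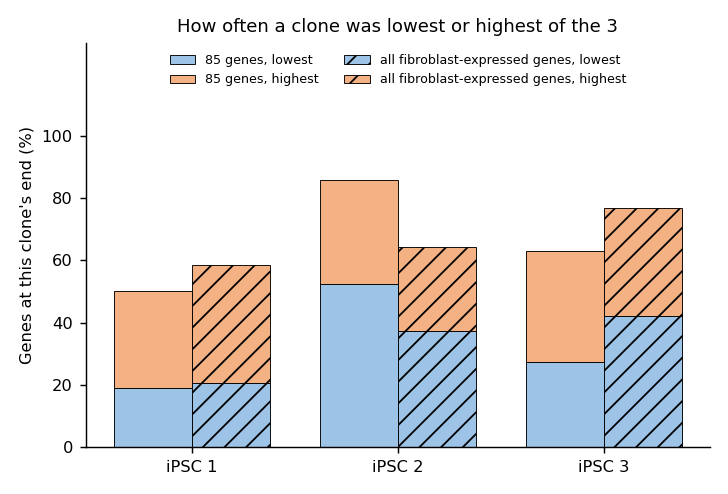
Percent of genes in which each iPSC clone had the lowest (blue) or the highest (orange) CPM of the 3 clones, for the 85 genes (plain bars, 84 genes with unequal clones) and for the 6585 genes with at least 20 CPM in fibroblasts and unequal clones (hatched bars). The stacked height is the percent of genes with the clone at either end, 85.7% for iPSC 2 in the 85 genes.

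The gene models of the 85 genes were described by features that the choice did not use. They had a median of 8 exon blocks, 2607 exonic bases and a span of 16089 bases, beside 11 blocks, 2917 bases and 28227 bases in the fibroblast-expressed genes. Genes that stayed high in iNSLCs (at least 1/2 of the fibroblast level) and were at or under 1/8 in every clone, 147 in number, had medians of 10 blocks, 3000 bases and 30383 bases. Although the median span was shorter, 17 of the 85 genes spanned at least 100 kb, beside 15% of the fibroblast-expressed genes. Models with at most 2 exon blocks made up 12.9% of the 85 genes (11 genes), beside 5.21% and, in the 147 genes, 7.48%. Unlike these features, the level per kilobase in fibroblasts rests on the fibroblast CPM, which the choice used, and is a description only. Its median was 54.4 CPM per kb, beside 21.1 in the fibroblast-expressed genes and 34.6 in the 147 genes.

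The 85 genes were spread over 32 of 39 chromosomes. Chromosome 6 held the most, 7 genes (8.24%, against 4.84% of the fibroblast-expressed genes), and the X chromosome held 3 (3.53%, against 3.11%). The plus strand held 45 genes (52.9%, against 49.6%). In 5 places a pair of the genes lay within 1 Mb, and 3 of these pairs overlapped on opposite strands. At chr30:38465283-38468482 (plus) and chr30:38465583-38498154 (minus) the models shared 1974 exonic bases. At chr8:47650909-47661903 (plus) and chr8:47659413-47758444 (minus) they shared 746. At chr3:52054684-52069311 (plus) and chr3:52054885-52064689 (minus) no exonic base was shared. The strand setting of the counting was not given, so reads in shared exons cannot be assigned to one strand with certainty.

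On chromosome 8 the plus-strand gene had 454 CPM in fibroblasts, 13.2 CPM in iNSLCs and 19.7, 15.9 and 19.7 CPM in the clones, all above iNSLCs. Its minus-strand partner had 13.2 CPM in iNSLCs too, and all clones below it, with a log2 fold change of -4.05 (SE 0.492, edgeR adjusted p = 0.00938) beside 0.32 (SE 0.328) for the plus-strand gene. The difference between the partners was not tested. On chromosome 3 the plus-strand gene had 206 CPM in fibroblasts, 10.5 CPM in iNSLCs and 6.97, 5.54 and 11.4 CPM in the clones. By library totals iPSC 3 alone was above iNSLCs, as in its partner, but TMM scaling put iNSLCs above every clone in both genes. On chromosome 30 the plus-strand gene had 21.5 CPM in fibroblasts, 0 counts in iNSLCs and 0.0338, 0.499 and 0.233 CPM in the clones. Leaving out the 5 genes that shared exonic bases with any model left 14 genes lower and 2 higher between iPSCs and iNSLCs.

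Gene models next to the 85 genes were often lower in iPSCs than in fibroblasts. Models that met the conditions themselves were not counted as neighbours, while the shares of called genes set beside them include the 85. The nearest tested model on each side that neither overlapped nor belonged to the 85 genes gave 163 neighbours. By edgeR's quasi-likelihood test 54 neighbours (33.1%) were lower in iPSCs, where 14.3% of all genes tested were, and 12 (7.36%) were higher, where 13.7% were. The median log2 fold change was -0.68 (interquartile range -2.4 to 0.72), beside 0.27 over all genes tested. Neighbours expressed in fibroblasts were compared with genes expressed there as well. Among the 123 with at least 1 CPM in fibroblasts 53 were lower (43.1%, against 20.1%) and 6 higher (4.88%, against 9.23%). Of all neighbours 69 (42.3%) had at least 20 CPM in fibroblasts, beside 37.6% of the other genes tested, and among these 69 there were 33 lower (47.8%, against 26.0%) and 1 higher (1.45%, against 6.94%). Within 50 kb 33 of 101 neighbours (32.7%) were lower, and farther away 21 of 62 (33.9%) were, a difference that was not tested.

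**Figure D4:**
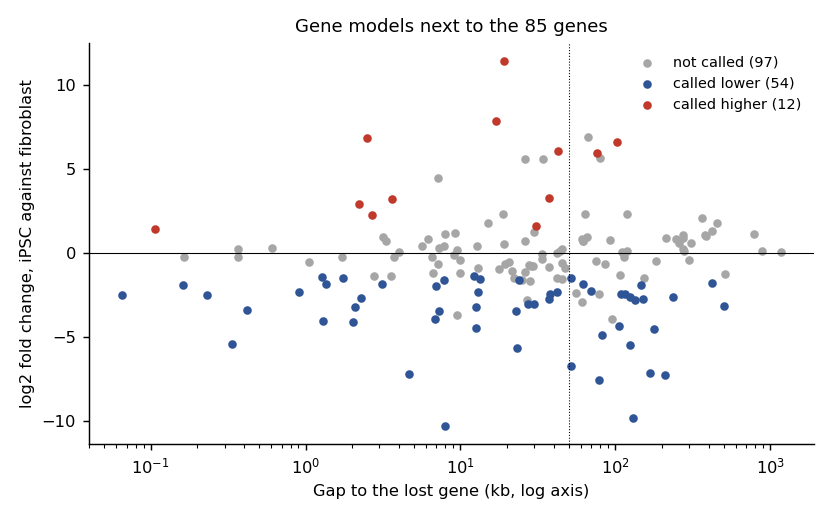
Log2 fold change of the 163 neighbouring gene models between iPSCs and fibroblasts (y axis) against the gap to the nearest end of the lost gene in kb (log x axis), with the dotted line at 50 kb. Neighbours called lower (54) are blue, those called higher (12) red, and the 97 others grey.

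Some neighbours were reduced in iNSLCs as well. Of the 69 neighbours with at least 20 CPM in fibroblasts, 7 (10.1%) were at or under 1/4 of the fibroblast level in iNSLCs, beside 3.37% of the fibroblast-expressed genes outside the 85. The neighbours named here were chosen after their values were seen. The one with the smallest remainder in iNSLCs, at chr14:19426685-19431295 next to the chromosome 14 gene above, had 69.1 CPM in fibroblasts, 4.96 CPM in iNSLCs and 7.78, 8.59 and 10.5 CPM in the clones. With iPSC 3 alone above 1/8 of the fibroblast level, it was not among the 85. At chr21:12794707-12795846 the levels were 438 CPM in fibroblasts, 59.7 CPM in iNSLCs and 19, 7.74 and 15 CPM in the clones. At chr21:35033878-35074664 the neighbour kept 175 of 210 CPM in iNSLCs and had 1.59, 1.85 and 1.31 CPM in the clones, so its iNSLC level was close to fibroblasts and far above every clone. Without iPSC 3, 30 of 156 neighbours were called lower, where 9.06% of all genes were. By the TMM factors, scaling with library totals alone raised log2 fold changes between iPSCs and fibroblasts by about 0.51. It gave 41 neighbours lower and 18 higher, where 10.4% and 22.1% of all genes were called.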

How the data were processed

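RNA-seq was analysed in 5 libraries of 1 dog. The deposited values are raw, unscaled counts per gene model. The authors' tools, as listed in the submitters' processing notes, were STAR 2.5.3a, featureCounts 1.5.2 and Trim Galore 0.4.0, and the build was CanFam3.1. Strand and multi-mapping settings are not given in these sources. Tables of the single libraries and of the whole series held the same counts, with 0 differing values. Even values made up 59.6% to 74.0% of counts from 1 to 10, so both mates of a pair may have been counted, and halved counts were an alternative. Reads from mouse feeder cells, which the study used during induction, were not separated.

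The 85 genes, lists and tests were chosen with earlier results of these data known. Differences were tested with edgeR 4.0.16 (quasi-likelihood, TMM, filterByExpr, Benjamini-Hochberg adjusted p under 0.05, two-sided) in R 4.3.3, in 1 fit of 3 groups with 2 residual degrees of freedom. It was tested on simulated data, with known changes set in the iPSCs alone and in genes above a set mean level. That run cannot show how reliable calls are at low levels, or if the lone libraries vary unlike the clones. DESeq2 1.42.0, limma 3.58.1, other scalings and filters, and leaving out each clone were alternatives. The counts of clone pairs differed by more than sampling noise gives (108 to 152 chi-square units per degree of freedom), so none was a repeat deposit of another, which does not show that the clones are independent. As 0 of 32220 gene IDs matched the 43286 rows of the gene table at hand (assembly UU_Cfam_GSD_1.0), the gene lists and cell type markers of the design were not analysed and no sequence is shown. Without symbols, the named genes were the 2 with the largest ratio of fibroblasts to the highest other library, and the 2 called genes with the largest fold change in each direction between iPSCs and iNSLCs. Other genes given by position were picked after their values were seen. Intervals and floors cover counting error only, since the reads carried no molecular identifiers. They treat counts as independent, so they would be too narrow if both mates of a pair were counted. They were not computed again on halved counts.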

Additional observations from a re-analysis of the deposited data

How the results depend on the processing

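With CPM scaled by TMM factors 129 genes met the conditions, with a ratio of 1/4 there were 216 and with 1/16 there were 37. Leaving out 1 clone gave 86 to 88. Between iPSCs and iNSLCs, the 15 lower calls (7.71% of all genes tested) became 26 without a filter (7.1%), 29 with DESeq2 (11.0%), 5 at an adjusted p under 0.01 (1.76%) and 0 to 38 when 1 clone was left out (0% to 15.2%). The 2 higher calls (3.51%) became 0 with limma-voom (1.6%, with 2 of the 85 genes at an unadjusted p under 0.05) and 0 at an adjusted p under 0.01 (0.0915%), 1 without the fibroblast library (4.26%) and 0 to 2 when 1 clone was left out (0% to 9.07%). In fits added after seeing the data, leaving out iPSC 1, iPSC 2 or iPSC 3 gave 29, 34 and 28 lower calls with DESeq2 and 18, 34 and 2 with limma-voom. Higher calls were then 2 each with DESeq2 and 0, 2 and 0 with limma-voom. The 54 lower calls among neighbours (14.3% of all genes) became 20 at an adjusted p under 0.01 (6.2%) and 30 to 67 when 1 clone was left out (9.06% to 19.1%). The 12 higher calls (13.7%) became 6 at an adjusted p under 0.01 (3.67%), 6 among neighbours with at least 1 CPM in fibroblasts (9.23%) and 9 to 17 when 1 clone was left out (7.51% to 21.2%). Apart from fewer genes or a stricter limit, the cause of these changes was not tested. No fold change of the named genes changed its direction in the alternatives run, but in 11 alternatives a named gene was no longer called. Of the alternative counts, 62 stayed within 1.5 times the value reported and 24 did not. With 1 library each of fibroblasts and iNSLCs and 11699186 counts in iNSLCs, levels under 0.256 CPM were not resolved there. No paired analysis was possible because the groups shared fewer than 2 replicate numbers.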
